A study of Mus musculus with 3 samples.

Results

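Hepatocyte plasma proteins and clotting factors are described here in fetal liver of 3 mouse genotypes at stage E14.5: the carriers, coagulation proteins, their inhibitors and the apolipoproteins that hepatocytes release into blood. The list held 43 gene symbols, taken from a working list that was drawn up with earlier results of these data known. Of these, 40 had a probe with that single symbol in the platform annotation, out of 13697 genes named in this way, and each was read by 1 probe. Albumin (Alb), apolipoprotein B (Apob) and the vitamin D-binding protein (Gc) had no such probe and are not analysed here. Poly(A) RNA from each genotype was measured on 1 single-colour CodeLink array: wild-type embryos, embryos deficient in DNase II, and embryos deficient in DNase II together with IFN-IR, through which cells sense type I interferon. The nuclease works in lysosomes, where it degrades the DNA of engulfed cells and of nuclei expelled by maturing red cells. Neither the alleles, the strain and the sex nor the number of embryos behind an array was stated in the labels. With a single array per genotype no value has a replicate check, and no test was made.

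Hepatocytes supply most proteins of blood plasma. In the fetus they share the liver with blood-forming cells, and alpha-fetoprotein stands in for much of the later albumin. Liver-enriched transcription factors such as HNF1, HNF4 and C/EBP drive most of these genes. During inflammation, interleukin-6 raises a subset of them, the positive acute phase proteins, while others are made less.

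The probe of Dnase2a, the gene of the nuclease, read 40.4 in wild-type, 48.6 under the label DNase II-deficient and 39.7 under the label double-deficient. The probe of Ifnar1, a chain of the interferon receptor, read 3.60, 4.66 and 3.17. Their positions with respect to the deletions are not stated in the labels, so the genotypes, and every direction below, rest on the labels. Values are the deposited normalised intensities, in arbitrary units with an array median of 0.958 to 0.963. Values under an array's 25th percentile, 0.159 to 0.163, were raised to it as a floor before log2 was taken. A gene was compared where it exceeded the median of either array, and was counted as different at 2-fold, a log2 difference of 1. Of the 40 measured genes, 39 were compared in all 3 comparisons. The remaining gene, Apoa4, which encodes an apolipoprotein made mainly by the intestine, was below the floor in each array, at 0.0908 in wild-type, 0.120 without DNase II and 0.0634 in the double-deficient array. As a yardstick for a single difference, the spread among the 500 compared genes nearest in level is given. On the log2 scale it was typically 0.41 for DNase II-deficient against wild-type, 0.35 for the mutants against each other and 0.25 for double-deficient against wild-type. It describes genes within these arrays and not replicates.

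Most plasma protein genes stayed within 2-fold of wild-type in both mutants, as did most of all genes compared. In the array labelled DNase II-deficient against wild-type, 1 of 39 compared members was at least 2-fold higher, against 7.67% of all genes compared, and 2 were at least 2-fold lower, against 6.17%. In the array labelled double-deficient against wild-type, none was 2-fold higher, against 2.05% of all genes, and 1 was 2-fold lower, against 0.735%. Between the mutants, none was higher in the double-deficient array, against 3.11%, and 1 was lower, against 4.85%. In all, 37 of the 40 genes were not counted as 2-fold different in any comparison, among them Apoa4, which was not compared. The 3 others were Apoc3, F13b and Itih1. The matching share of all genes over the 3 comparisons together is not given here.

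**Figure D1:**
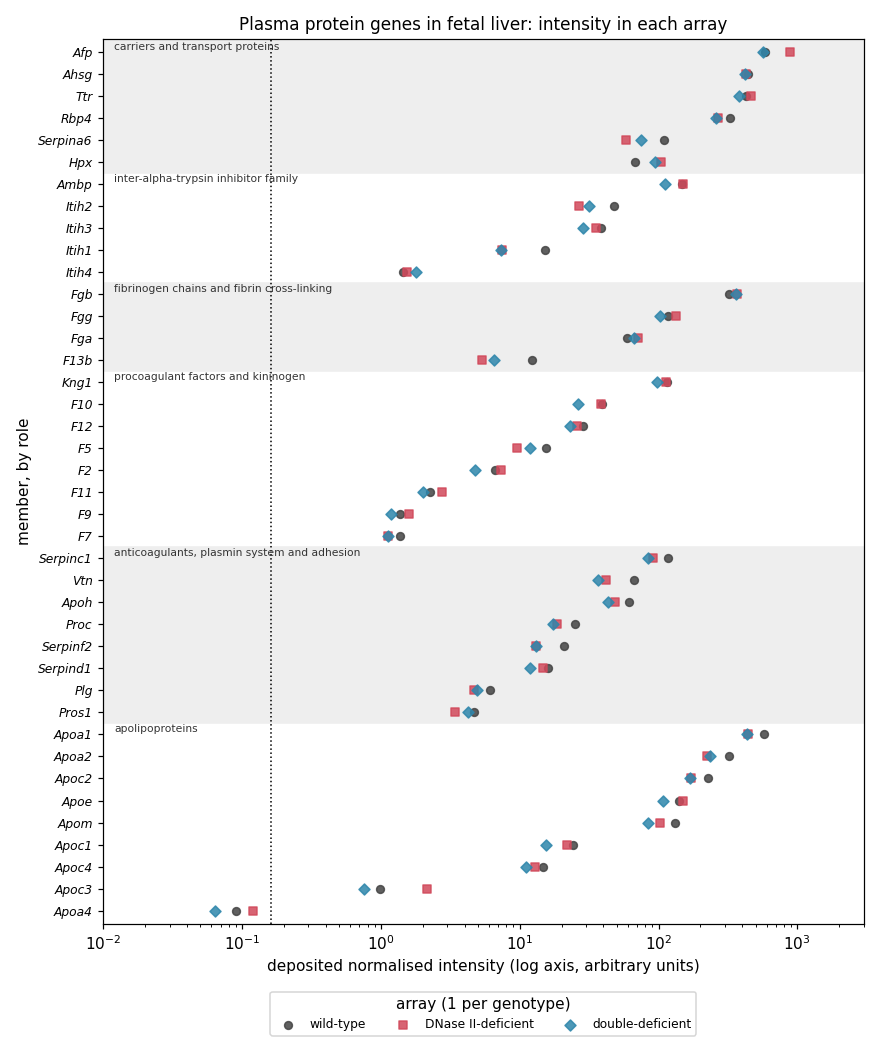
Deposited normalised intensity (log axis, arbitrary units) of the 40 measured plasma protein genes in the array of each genotype, 1 point per array, grouped by role in shaded bands. The dotted line is the mean of the arrays' floors, and Apoa4 alone lies below it. The 3 points of most genes lie close together, and among genes above the floor those of Apoc3, F13b, Itih1, Serpina6, Vtn and Itih2 lie farthest apart.

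Smaller shifts had a direction. In the double-deficient array 35 of 39 members lay below wild-type, against 61.1% of all genes compared, with a median log2 difference of -0.41 against -0.076. Of the 39, 27 were lower by more than the spread of genes of like level, as were 22.7% of all genes, and 2 were higher by more than it, against 13.6%. Without DNase II alone, 26 of 39 lay below wild-type, against 65.7% of all genes, with a median of -0.16 against -0.21, so the members lay 0.051 above the typical gene. Of the 39, 3 were higher and 9 lower by more than the like-level spread, as were 14.6% and 27.2% of all genes. The sign of that members' median depended on the scaling between arrays: it was 0.082 after quantile normalisation, 0.13 after cyclic loess and 0.051 after centring on all genes, and -0.024 after scaling to the 75th percentile. Between the mutants, 31 of 39 members were lower in the double-deficient array, against 39.1% of all genes, with a median of -0.16 against 0.11, and 8 were higher, against 60.9%. By more than the like-level spread 10 were lower and 1 was higher, against 14.2% and 23.9%. The comparisons share arrays and are not independent of each other. In bulk tissue, fewer hepatocytes and less of an RNA per hepatocyte cannot be told apart.

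Among the carriers, which hold hormones, vitamins, heme and lipids in plasma, alpha-fetoprotein and hemopexin were higher and the corticosteroid carrier was lower without DNase II. The probe of Afp read 583 in wild-type, 885 without DNase II and 568 in the double-deficient array. The array without DNase II alone was high, by a log2 difference of 0.60 from wild-type against a like-level spread of 0.40, and the other two were close to each other. That probe was the second brightest of its array, and saturation of such bright spots could not be examined here. Hpx encodes hemopexin, which binds free heme, and read 67.3 in wild-type, 105 without DNase II and 93.9 in the double mutant. Both mutant arrays were above wild-type, by 0.64 and 0.48 on the log2 scale. Serpina6 encodes the carrier of corticosteroids. It read 109, 58.4 and 74.9 in the same order, a log2 difference of -0.90 without DNase II and -0.54 in the double mutant. Both mutant arrays were low, the one without DNase II alone lower. The retinol and thyroid hormone carriers Rbp4 and Ttr and the fetuin gene Ahsg lay within -0.33 and 0.12 of wild-type in either mutant. The median of the 6 measured carriers was 0.042 without DNase II and -0.12 in the double mutant, where its sign turned to 0.036 after cyclic loess.

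The inter-alpha-trypsin inhibitor family stabilises the hyaluronan matrix, its heavy chains being joined to bikunin, which comes from Ambp. Itih1, a heavy chain gene, read 15.2 in wild-type, 7.40 without DNase II and 7.33 in the double mutant. Both mutant arrays were about equally low, by -1.03 and -1.05 on the log2 scale against like-level spreads of 0.45 and 0.25. Itih2, another heavy chain gene, read 47.6, 26.7 and 31.7, lower in both mutants by -0.84 and -0.59. Itih4, whose product is also an acute phase protein, read 1.44, 1.54 and 1.78, differences of 0.094 and 0.30, the first within the spread of 0.46. Ambp read 148, 151 and 112, so the double-deficient array alone was low, by -0.41 from wild-type. Itih3, which lies next to both Itih1 and Itih4 on chromosome 14, had differences of -0.13 and -0.43. The family's median of -0.13 without DNase II changed sign after quantile normalisation, loess and centring, to between 0.072 and 0.16, and in the double mutant it was -0.43 and below 0 in each setting.

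The 3 fibrinogen chains, the precursor of fibrin, stayed within 2-fold of wild-type in each setting. Fga, the alpha chain gene, read 58.8 in wild-type, 71.4 without DNase II and 67.0 in the double mutant. Fgb, the beta chain gene, read 321, 369 and 363. Fgg, the gamma chain gene, read 118, 133 and 102. The array without DNase II was the highest for all 3 chains, by 0.28, 0.20 and 0.17 on the log2 scale over wild-type, each less than the like-level spread of 0.40 to 0.41 as deposited. These differences depended on the scaling and reached 0.59 for Fga, 0.54 for Fgb and 0.50 for Fgg after cyclic loess. In the double mutant Fga and Fgb lay at 0.19 and 0.18 and Fgg at -0.21. F13b, the carrier subunit of the factor XIII that cross-links fibrin, went the other way from the chains. It read 12.4, 5.35 and 6.53, low in both mutant arrays, by -1.21 without DNase II and -0.92 in the double mutant. Its spreads were 0.50 and 0.28.

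Promoters of the fibrinogen chains and of Itih1 are shown for their differences without DNase II as deposited. There the chains, adjacent on chromosome 3 with Fga between the others, lay close together, while Itih1 read at least 2-fold lower. In the double mutant Fgg, at -0.21, lay apart from Fga and Fgb, at 0.19 and 0.18. Each run is the 250 bases before the start that the RefSeq promoter table uses (GRCm38.p6), 5′ to 3′ on the gene's strand. Capitals mark GTTAAT or its reverse complement ATTAAC, the core letters of an HNF1 site, and CTGGGAA or its reverse complement TTCCCAG, the core of the type II interleukin-6 response element. No printed match of one overlaps a match of the other.
Fga, chr3:83025903-83026152, plus strand: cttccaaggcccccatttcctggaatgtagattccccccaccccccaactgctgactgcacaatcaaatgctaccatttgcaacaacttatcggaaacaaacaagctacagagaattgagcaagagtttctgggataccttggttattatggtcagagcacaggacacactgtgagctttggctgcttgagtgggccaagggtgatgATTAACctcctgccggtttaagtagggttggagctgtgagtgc
Fgb, chr3:83049864-83050113, minus strand: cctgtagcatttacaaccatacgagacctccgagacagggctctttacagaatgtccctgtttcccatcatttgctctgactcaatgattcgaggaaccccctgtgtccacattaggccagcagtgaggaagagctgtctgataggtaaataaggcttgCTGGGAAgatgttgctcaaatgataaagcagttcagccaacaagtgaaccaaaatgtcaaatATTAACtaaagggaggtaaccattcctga
Fgg, chr3:83007474-83007723, plus strand: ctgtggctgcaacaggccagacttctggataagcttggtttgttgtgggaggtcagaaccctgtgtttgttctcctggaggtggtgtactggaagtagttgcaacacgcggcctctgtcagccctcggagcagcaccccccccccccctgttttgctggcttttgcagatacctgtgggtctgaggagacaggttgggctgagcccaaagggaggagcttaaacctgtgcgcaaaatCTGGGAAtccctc
Itih1, chr14:30943290-30943539, minus strand: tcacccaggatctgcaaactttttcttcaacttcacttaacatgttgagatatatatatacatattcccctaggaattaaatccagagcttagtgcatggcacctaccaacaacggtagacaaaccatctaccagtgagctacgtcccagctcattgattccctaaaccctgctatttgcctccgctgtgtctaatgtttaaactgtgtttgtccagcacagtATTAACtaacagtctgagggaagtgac

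The HNF1 core began 43 bases before the start of Fga, 29 before Fgb and 27 before Itih1, and its part in their differences was not tested. Of the 36 list genes with a promoter in the RefSeq table, 10 held it (27.8%), against 7.49% of 27025 genes. The interleukin-6 core began 91 bases before Fgb and 13 before Fgg and was in 4 of the 36 promoters (11.1%), against 10.4% of all. The element of interferon-stimulated genes, searched as GAAA followed after any 2 bases by GAAA, was in none of the 36, against 3.46%. The palindrome TTCNNNGAA, which STAT factors can bind, was in 5 (13.9%), against 8.13%, and can overlap the other motifs. These are matches of letters on both strands and not tests of binding.

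The procoagulant factors, the zymogens and cofactors that lead to thrombin, were close to wild-type without DNase II, with a median of -0.027 over 8 genes, which turned positive after each of the scalings by quantile, 75th percentile, loess and centring. All 8 were below wild-type in the double mutant, against 61.1% of all genes, with a median of -0.30. F5, the cofactor that speeds thrombin formation and that platelets also carry, read 15.4 in wild-type, 9.57 without DNase II and 11.9 in the double mutant. Both mutant arrays were low, by -0.68 and -0.37. F2, the prothrombin gene, read 6.69, 7.29 and 4.75, and F10, the protease gene that activates prothrombin, read 39.1, 38.2 and 26.2. For both, the double-deficient array alone was low, by -0.49 and -0.57 from wild-type, beyond the like-level spreads of 0.30 and 0.25. F11, of the intrinsic pathway, read 2.27, 2.78 and 2.0, with differences of 0.29 and -0.18 that lay within the spreads of 0.55 and 0.25. The kininogen gene Kng1 and the factor genes F7, F9 and F12 lay between -0.32 and 0.22 of wild-type in either mutant.

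As deposited, anticoagulants, the plasmin system and adhesive plasma proteins formed the group with the lowest median in either mutant array. All 8 genes were below wild-type in both mutant arrays, against 65.7% of all genes without DNase II and 61.1% in the double mutant. Their medians were -0.40 without DNase II and -0.50 in the double mutant, or -0.19 and -0.42 relative to all genes compared. In another setting the inter-alpha-trypsin median without DNase II was lower than theirs, at -0.49. As deposited without DNase II, Vtn and Serpinf2 alone of the 8 genes of this group exceeded their like-level spreads, Serpinf2 at -0.66 against 0.47. In the double mutant Pros1 alone of them did not. After each of the 4 other scalings 7 of the 8 were below wild-type without DNase II, and all that were compared were so in the double mutant. Vtn, encoding vitronectin, which anchors cells and steadies the inhibitor of plasminogen activators, read 66.5 in wild-type, 42.1 without DNase II and 36.6 in the double mutant. Both mutant arrays were low, by -0.66 and -0.86 against spreads of 0.38 and 0.26. Pros1, the cofactor of activated protein C, read 4.70, 3.43 and 4.26, lower without DNase II by -0.45 and near wild-type in the double mutant at -0.14. Serpind1, encoding the thrombin inhibitor heparin cofactor, read 15.9, 14.6 and 11.8, differences of -0.12 and -0.43. The antithrombin gene Serpinc1, the antiplasmin gene Serpinf2, the plasminogen gene Plg, the protein C gene Proc and Apoh, whose product binds phospholipid, were lower by differences of -0.66 to -0.34 without DNase II and -0.67 to -0.31 in the double mutant.

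**Figure D2:**
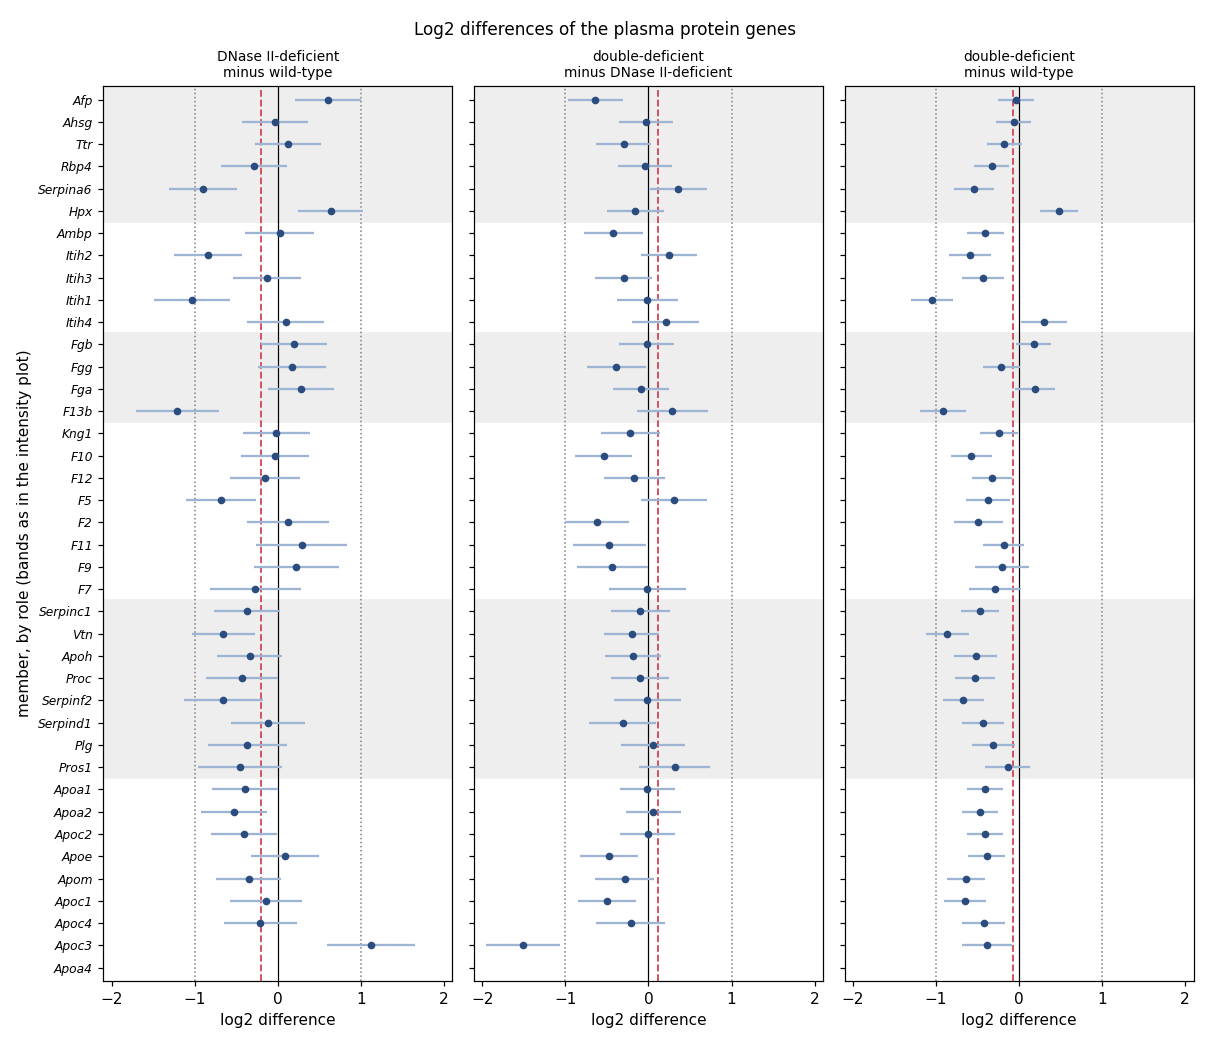
Log2 difference of each compared member in the 3 comparisons. Bars are the spread of genes of like level (a median absolute deviation over 500 genes, scaled to a standard deviation), dotted lines mark 2-fold and the dashed line marks the median of all genes compared, at -0.21, 0.11 and -0.076 from left to right. In the right panel Hpx, Itih4, Fga and Fgb alone lie above 0.

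The apolipoproteins, which coat plasma lipoproteins and direct their lipid, were lower in the double mutant where compared, and Apoc3 stood out without DNase II. Apoc3, an inhibitor of lipoprotein lipase, read 0.982 in wild-type, 2.13 without DNase II and 0.750 in the double mutant. The array without DNase II alone was high, 2.17-fold over wild-type and 2.85-fold over the double mutant, on a probe that was only just above the array median in wild-type and below it in the double mutant. With the level filter at the 75th percentile the gene was no longer compared. Its neighbour Apoa1 lies beside it on chromosome 9, encodes the main protein of high-density lipoprotein and differed by -0.40 without DNase II. Apoa2, a second protein of that particle, read 324, 225 and 234, low in both mutants by -0.53 and -0.47. Apoc1, which lies beside Apoe on chromosome 7, read 24.3, 22.0 and 15.5. The double-deficient array alone was low, by -0.65 against a spread of 0.25. In the double mutant all 8 compared apolipoproteins were below wild-type, against 61.1% of all genes, from -0.65 to -0.39 with a median of -0.42. Without DNase II 6 of 8 were lower, against 65.7% of all genes. Their median was -0.28, or -0.077 relative to all genes compared, and turned to 0.012 after cyclic loess. Apoe, which macrophages also make, was at 0.083 without DNase II and -0.39 in the double mutant.

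The members were also read by their textbook behaviour in the acute phase. Of 6 genes that rise in the acute phase by textbook knowledge (Fga, Fgb, Fgg, Hpx, Itih3 and Itih4), 5 lay above wild-type without DNase II, against 34.3% of all genes compared, with a median of 0.19. As deposited, Hpx alone of these exceeded its like-level spread, at 0.64 against 0.39. In the double mutant 4 lay above wild-type, against 38.9%, with a median of 0.18. These 4, Hpx, Itih4, Fga and Fgb, were all the members above wild-type in that array. As deposited, Fga and Fgb lay within their like-level spreads there, at 0.19 against 0.24 and 0.18 against 0.21, while Hpx and Itih4 exceeded theirs. The 4 stayed above wild-type after quantile, 75th percentile and loess scaling and centring, when Afp, Ahsg or both joined them. The 6 measured genes that fall in the acute phase (Ttr, Rbp4, Ahsg, Serpina6, Apoa1 and F12) had medians of -0.22 without DNase II and -0.33 in the double mutant, with 5 and 6 of them below wild-type, against 65.7% and 61.1% of all genes compared. Relative to all genes those medians were -0.016 and -0.25, and the first turned to 0.0087 after quantile normalisation and 0.095 after loess. The 6 members whose products need vitamin K (F2, F7, F9, F10, Proc and Pros1) had medians of -0.15 and -0.39, the first turning to 0.012 after quantile normalisation, 0.059 after loess and 0.054 after centring. In the double mutant all 6 were below wild-type, against 61.1% of all genes.

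**Figure D3:**
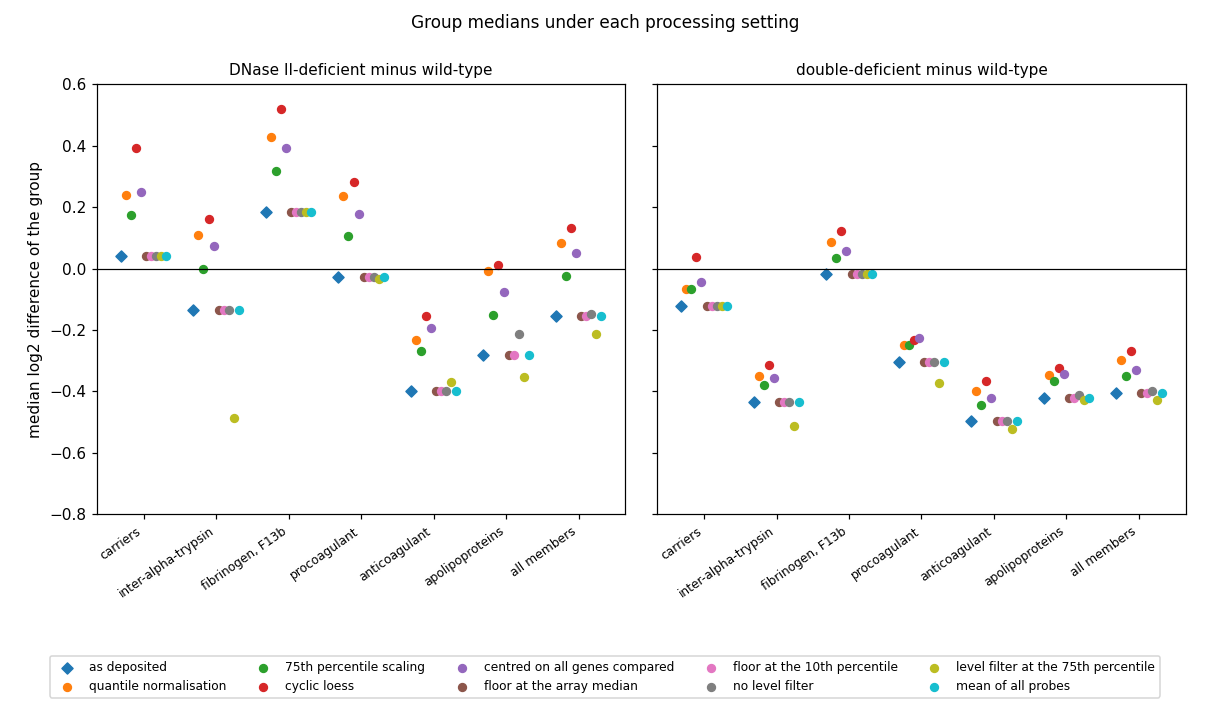
Median log2 difference of each role group and of all members (vertical axis) in the DNase II-deficient (left) and double-deficient (right) arrays against wild-type, as deposited (diamonds) and under 9 other processing settings (circles). On the left the medians of the inter-alpha-trypsin, procoagulant, apolipoprotein and all-member groups change sign with the scaling. On the right the median of all members stays between -0.43 and -0.27, and those of the carrier and fibrinogen groups change sign.

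Other genes of the pathways did not all go with the members. Of 16 liver-enriched transcription factors 11 had a probe and 7 were compared without DNase II. Cebpb, whose product C/EBP beta acts on acute phase genes, was 4.78-fold higher at 1.87 and 8.92, and read 3.71 in the double mutant. Ppara, a regulator of fatty acid use, read 0.454, 0.966 and 0.489, 2.13-fold higher without DNase II. It exceeded the array median only there, and barely. The other compared factors were not 2-fold different in that comparison. Of 10 measured genes for gamma-carboxylation, lipoprotein assembly and secretion, none was 2-fold different in any comparison. Of all genes 0.735% to 7.67% were so per comparison and direction. Of 21 clotting and fibrinolysis genes outside the list, 17 had a probe and 11 were compared without DNase II. Of these, 4 were at least 2-fold higher and 1 lower, against 7.67% and 6.17% of all genes. Fgl1, a fibrinogen-like gene of hepatocytes that interleukin-6 raises, was below the floor in wild-type at 0.111 and read 2.93 without DNase II, at least 18.1-fold higher. Plaur, the urokinase receptor gene of myeloid cells, read 0.281 in wild-type and 2.95 without DNase II, 10.5-fold higher. Fgl1 and Plaur were below the array median in wild-type and entered that comparison only through the array without DNase II. F13a1, the catalytic factor XIII subunit of macrophages and platelets, was 2.76-fold higher than its 5.26 in wild-type.

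Markers of other cells also differed in these comparisons. All 10 measured of 14 erythroid markers were lower without DNase II, 8 of them at least 2-fold. Of all genes in that comparison 65.7% were lower, 6.17% at least 2-fold lower and 7.67% at least 2-fold higher. The erythroid markers had a summed intensity of 555 in wild-type, 182 without DNase II and 448 in the double mutant. Summed intensity of the members was 4685, 4571 and 3957, and that of 14 measured of 18 hepatocyte markers outside the list was 312, 276 and 263. That sum was lowered without DNase II by G6pc, at 135, 56.0 and 118: without this gene, a reading chosen after the values were seen, it was 177, 220 and 145. Of the 11 hepatocyte markers compared without DNase II, 7 lay above wild-type, against 34.3% of all genes, with a median of 0.14 against -0.21. In the double mutant 3 lay above and 8 below, against 38.9% and 61.1% of all genes, with a median of -0.20 against -0.076. Tdo2 and Tat, both enzymes of the mature liver, were measured but not compared. Tdo2 was below the floor in all 3 arrays, and Tat was below the array median, at 0.366, 0.403 and 0.330. Megakaryocyte and platelet markers, 6 of 8 with a probe, summed to 230, 166 and 162, macrophage markers (10 of 14) to 165, 173 and 176, endothelial markers (8 of 10) to 60.5, 49.8 and 61.6, and stellate and mesenchymal markers (10 of 10) to 145, 211 and 161. Ppbp, at 158, 96.1 and 99.9, dominated the megakaryocyte sum. The median of the 5 megakaryocyte markers compared without DNase II was -0.12, against -0.21 for all genes. Of 7 endothelial markers compared without DNase II, Stab2 (23.0 and 10.2) was at least 2-fold lower. Pecam1 (0.775 and 2.01) and Emcn (0.827 and 1.93), both below the array median in wild-type, were at least 2-fold higher. The macrophage markers differed in both directions: of 9 compared without DNase II, Fcgr1 (4.22 and 21.3) and Lyz2 (24.6 and 52.2) were at least 2-fold higher, and Marco (41.1 and 3.98), Cd5l (30.6 and 3.41) and Clec4f (1.27 and 0.177) at least 2-fold lower. The part of these cells in the differences was not tested. Yolk sac visceral endoderm also makes Afp, Ttr and apolipoproteins, and 7 of 8 of its markers had a probe, summing to 9.36, 13.3 and 13.1. Amn, Cubn and Lrp2 were below the floor in all 3 arrays. The 3 compared without DNase II all lay above wild-type, against 34.3% of all genes. Dab2 read 4.77, 6.69 and 8.27, Slc39a4 read 2.65, 3.09 and 3.22, and Rhox5 read 0.949, 2.43 and 0.772. The part of such cells in the levels of Afp or the apolipoproteins was not tested. All 12 intestine, pancreas and stomach markers had a probe, summing to 19.9, 25.5 and 17.1, with Tff2 and Sox2 below the floor in all 3 arrays. Of 4 compared without DNase II, Tff3 (8.25, 18.0 and 7.20) and Cpa1 (0.714, 1.83 and 1.19) were at least 2-fold higher and Fabp2 (6.78, 1.16 and 4.53) at least 2-fold lower, and their part in the differences was not tested either. Cpa1 and Rhox5 were below the array median in wild-type and entered that comparison only through the array without DNase II.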

How the data were processed

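Poly(A) RNA was copied, transcribed with a biotinylated nucleotide, hybridised to CodeLink arrays, stained with Cy5-streptavidin, scanned and quantified in CodeLink's own software, per the labels' protocols. The authors deposited normalised intensity per probe on a linear scale. Its version, background step and filters are not stated in the labels. Of 20289 probes, 20164 had all 3 values and were used. Names came from the platform annotation, which can be old (15120 probes with 1 symbol, 38 with several, 5131 with none). The brightest probe stood for a gene. The shared scale makes each level relative to its array's typical probe. Dim values may be mostly noise, which could not be measured without replicates.

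Differences were taken on log2 values with a floor, as given above, in Python 3.11.15 with pandas 2.3.3. Cyclic loess used limma 3.58.1 in R 4.3.3. The steps were tested on simulated data with planted differences beyond 2-fold, so the smaller shifts described here were not covered. No test was possible with 1 array per genotype. The alternatives were 4 scalings, 2 floors, 2 level filters and the mean of a gene's probes. Values in full are given for members at least 2-fold different in a comparison, the highest and lowest of each role group, the fibrinogen chains and Afp, and for other lists up to 3 genes each. Further members, Tdo2, Tat and the named markers of other tissues were chosen after their values were seen. Members and lists were chosen with earlier results of these data known. Promoters came from RefSeq (GRCm38.p6), without the 50 bases after the start.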

Additional observations from a re-analysis of the deposited data

How the results depend on the processing

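The number of arrays limits all values, and 1 array decides each. Members at least 2-fold lower without DNase II numbered 2 as deposited and 1 after quantile normalisation, 75th percentile scaling and centring on all genes compared (F13b, without Itih1), and 0 after cyclic loess. Members 2-fold lower in the double mutant against wild-type numbered 1 (Itih1) and 0 after each of these 4 scalings. With the level filter at the 75th percentile the member 2-fold higher without DNase II and the member 2-fold lower between the mutants, both Apoc3, were not compared, leaving 0 and 0.

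The members' median without DNase II was -0.16 as deposited, 0.082 after quantile normalisation, -0.024 after 75th percentile scaling, 0.13 after loess and 0.051 after centring. Between the mutants it was -0.16, and -0.33, -0.34 and -0.27 after quantile normalisation, loess and centring. In the double mutant against wild-type it was -0.41, and -0.30 and -0.27 after quantile normalisation and loess. The shares of all 2-fold calls that were higher without DNase II were 55.4% as deposited and 65.8%, 67.1%, 73.0% and 73.6% under the 4 scalings. Between the mutants they were 39.0% against 31.7%, 30.4%, 25.7% and 26.8%.

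All genes 2-fold lower without DNase II numbered 517, and 298 both after loess and after centring. With the filter at the 75th percentile, 310 were higher and 321 lower without DNase II, 158 and 192 between the mutants, and 67 and 25 in the double mutant. With no level filter the last pair was 259 and 97. No member's 2-fold difference reversed in any setting. Each member had 1 probe, so the mean of probes altered no member. No paired analysis was possible because each genotype has 1 array.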

Other observations

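Of 11 hepatocyte markers outside the plasma protein list that were compared without DNase II, 2 were at least 2-fold higher and 1 lower, against 7.67% and 6.17% of all genes. Asgr1, a subunit of the receptor that clears asialoglycoproteins from plasma, read 2.24 in wild-type, 8.35 without DNase II and 3.06 in the double mutant, 3.72-fold higher without DNase II. Fbp1, an enzyme of gluconeogenesis, read 1.39, 4.15 and 1.03. G6pc, which releases glucose from its phosphate, read 135, 56.0 and 118, 2.41-fold lower without DNase II. Hpd, an enzyme of tyrosine breakdown, read 9.87, 8.33 and 3.72, low in the double mutant alone.

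Among lipoprotein receptors and plasma lipid enzymes, Pon1, the paraoxonase of high-density lipoprotein, read 2.41 in wild-type, 0.386 without DNase II and 0.588 in the double mutant, 6.25-fold and 4.10-fold lower. Vldlr, the receptor for very low-density lipoprotein, read 0.696, 3.0 and 0.814, and was 4.32-fold higher without DNase II. Pon1 exceeded the array median in wild-type alone, and Vldlr exceeded it without DNase II alone. Of the clotting genes outside the list, Proz, which encodes protein Z, a vitamin K-dependent cofactor, was 2.12-fold lower without DNase II at 8.14 and 3.84, and read 6.81 in the double mutant. Serping1, encoding the inhibitor of C1 esterase and kallikrein, was 2.41-fold higher at 10.6 and 25.5, and read 14.8 in the double mutant. Each of these genes rests on the array values of 1 sample per genotype.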
